A study of Rattus norvegicus with 6 samples.

Results

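Cytosolic ribosomal protein genes encode the proteins of the small (40S) and large (60S) subunits of the cytoplasmic ribosome, the machine that translates messenger RNA. The members described here are all gene symbols of the form Rpl or Rps plus a number, with an optional suffix a, l, x or y, together with Rplp0, Rplp1, Rplp2 and Rpsa. There were 80 of them among 30076 symbols. They were measured in 6 libraries, each from 1 male F344 rat aged 18 months, from tissue labelled prefrontal cortex, taken as a coronal section of 1 mm. Replicates 1, 2 and 3 were untreated, and replicates 4, 5 and 6 had 7 days of cranial osteopathic manipulation (COM), a manual treatment of the head. Both groups were anaesthetised with isoflurane, for which the labels give 1.5 to 3% in the treated rats. Values are FPKM, fragment numbers scaled by transcript length and by the depth of the library.

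A ribosome needs its proteins in equal numbers, and cells make these proteins from a set of short, abundant and long-lived messenger RNAs. Most of these messengers begin with a 5′ terminal oligopyrimidine (TOP) stretch, through which the kinase complex mTORC1 and the binding protein Larp1 control their translation together. In neurons ribosomal proteins are made in the cell body and also locally in dendrites and axons. Mammalian genomes hold many processed copies of these genes, so that reads of a gene and of its copies can be hard to tell apart.

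The start sites of 6 members are shown because the shared start is the sequence feature that ties these genes together. RefSeq start positions of the rat assembly GRCr8 were found for 60 of the 80 members by symbol. Each line gives 30 bases, 15 before and 15 from the annotated start, 5′ to 3′, and capitals mark every CTCTT or CTTTC, the letters searched, which may overlap each other.
Rpl37a: gcatgcccgttgcgtCTCTTcCTCTTcggg
Rpl21: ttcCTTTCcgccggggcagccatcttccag
Rps18: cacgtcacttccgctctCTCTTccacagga
Rps21: gaacgagccacttcCTTTCtgtgttctccg
Rplp1: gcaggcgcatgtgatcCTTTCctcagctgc
Rpsa: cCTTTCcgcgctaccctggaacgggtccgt

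The windows lie at chr9:81748076-81748105 (+ strand) for Rpl37a, chr12:13386139-13386168 (- strand) for Rpl21, chr20:4933730-4933759 (+ strand) for Rps18, chr3:187724023-187724052 (+ strand) for Rps21, chr8:71290858-71290887 (- strand) for Rplp1 and chr8:128728864-128728893 (+ strand) for Rpsa. In Rpl37a the letters start at the annotated start itself, in Rps18 and Rplp1 just after it, in Rps21 across it, and in Rpl21 and Rpsa they lie before it. On the gene's own strand 32 of the 60 matched members (53.3%) held CTCTT or CTTTC in this window, against 7.88% of the 27457 genes in the RefSeq promoter table. On the opposite strand it was 3.33% of members and 8.18% of all genes. Of ribosome biogenesis genes, which help to build the ribosome and are not part of it, 10.0% held the letters on the gene's strand. Members with and without the letters had near values: the median log2 fold change was -0.50 in 28 tested members with the letters and -0.60 in 23 without them.

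FPKM of ribosomal protein genes were on average lower in manipulated rats, but no single gene passed the test. On the deposited scale the libraries of the groups interleaved. Of the 80 members 65 could be tested, with means from 3.03 to 395.6 FPKM and a median of 81.3 FPKM. By limma on log2(FPKM + 1), with adjustment over all 10731 tested genes, 0 of 65 passed, and the smallest adjusted p was 0.227. At an unadjusted limma p under 0.05, 7 members were lower (10.8%) and 1 was higher (1.54%), beside 13.5% and 1.52% of all tested genes. Together these 8 became 1 member without untreated replicate 3 and 25 without untreated replicate 2. The shares of all tested genes in these fits are not given here, so the change in count is not shown to be particular to the members. Of all tested genes 0.270% passed the adjusted test as lower and 0.0932% as higher. The labels tie each library to 1 animal, so that the test measures spread between rats.

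The median log2 fold change, manipulated minus untreated, was -0.53 over the 65 members and -0.36 over all tested genes. Of the members 60 (92.3%) lay below 0, beside 86.9% of all tested genes, and 5 above 0 (7.69%), beside 13.1%. When libraries were scaled by the median ratio of all tested genes, the median of the members was -0.08 and that of all genes -0.0039. Then 27 members (41.5%) lay above 0, beside 49.3% of all tested genes, and 38 (58.5%) below 0, beside 50.7%. No member passed the adjusted limma p in either direction after scaling, beside 0.103% of all tested genes higher and 0.196% lower. The median for 39 proteins of the large subunit was -0.53 and for 26 of the small subunit -0.53, so that both subunits had the same median. FPKM summed over the 65 members was 6859, 5824 and 9596 in untreated replicates 1, 2 and 3 and 5079, 6376 and 4633 in manipulated replicates 4, 5 and 6. Untreated replicate 3 stood highest and manipulated replicate 6 lowest, while manipulated replicate 5 lay above untreated replicate 2. The group means were 7426 ± 1949 and 5363 ± 905 (SD, n = 3), a ratio of 0.722, and after median-ratio scaling the ratio was 0.999. With libraries scaled to equal summed FPKM the ratio was 0.759. The sums were then 6583, 6375 and 8566 in untreated and 5444, 4960 and 5924 in manipulated replicates, so that the groups stood apart. On the deposited scale and after median-ratio scaling the sums of the groups overlapped. Manipulated replicate 5 was divided by 1.29 for equal sums, but by 0.995 in median-ratio scaling, so that its place depended on the scaling.

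In most ribosomal protein genes the same libraries were highest and lowest. Untreated replicate 3 had the highest value in 56 of 65 members (86.2%), beside 33.7% of all tested genes, and manipulated replicate 6 the lowest in 54 (83.1%), beside 73.3%. Among all tested genes it was untreated replicate 1 that was most often highest, in 44.9% of genes, but only 1 member had its highest value there. Manipulated replicate 5 exceeded untreated replicate 2 in 52 of 65 members. The median deviation of all tested genes was also higher in the former, at -0.015 beside -0.062. After median-ratio scaling untreated replicate 3 was highest in 38 members and manipulated replicate 6 in 17, while manipulated replicate 4 was lowest in 32 and untreated replicate 1 in 21. Shares of all tested genes are not given for the 52 members or for the scaled order. These counts are therefore not shown to be particular to the members. On the deposited scale the groups stood apart, with all manipulated below all untreated values, in 8 members (12.3%), beside 23.6% of all tested genes. These 8 were Rpl4, Rpl9, Rpl15, Rpl21, Rps18, Rps20, Rps27a and Rpsa. The opposite order, with all manipulated above all untreated values, was seen in 1 member, Rpl37a (1.54%), beside 1.13% of all tested genes.

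**Figure D1:**
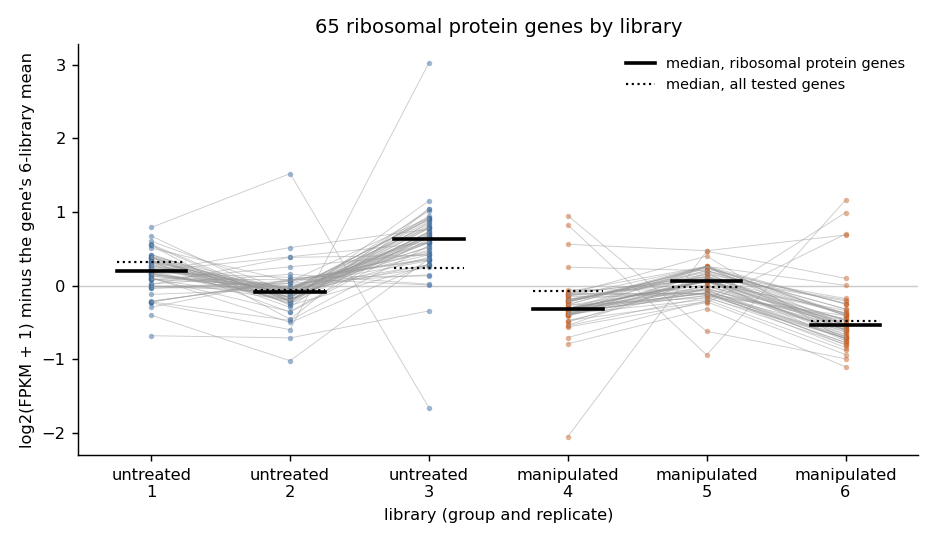
Each point is 1 of 65 ribosomal protein genes in 1 library, as log2(FPKM + 1) minus the gene's mean over the 6 libraries (y axis), by group and replicate (x axis). Grey lines join a gene within a group, thick bars are medians of these genes and dotted bars medians of all tested genes. The thick bars stand at 0.64 in untreated replicate 3 and at -0.53 in manipulated replicate 6, and that of manipulated replicate 5, at 0.06, lies above that of untreated replicate 2, at -0.09.

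Among the genes with the lowest fold changes were Rps27a and Rpl21. Rps27a encodes a fusion of ubiquitin with a small-subunit protein. It had 159, 86.0 and 223 FPKM in untreated and 71.4, 85.4 and 51.5 FPKM in manipulated rats. The groups stayed apart by less than 1 FPKM, between untreated replicate 2 and manipulated replicate 5. Its log2 fold change was -1.08 (SE 0.40, limma adjusted p 0.322). Rps27a had a row on chromosome 14 (113966611 to 113968268, Rnor_6.0; 113965369 to 113968327 in untreated replicate 2) and one on chromosome 5 (138628482 to 138629026), and their values were added.

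Rpl21, a large-subunit protein whose start site is shown above, had 385, 281 and 513 FPKM in untreated and 185, 242 and 155 FPKM in manipulated rats. All manipulated values lay below all untreated ones, and the log2 fold change was -0.997 (SE 0.335, limma adjusted p 0.310). Nearly all of it came from the row on chromosome 12 (9996951 to 9998779), which held 367 of the 385 FPKM in untreated replicate 1. The other 3 rows of the symbol were on chromosomes 3, 13 and X.

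Rpl9 had 11.9, 6.99 and 15.1 FPKM in untreated and 5.48, 6.42 and 3.60 FPKM in manipulated rats. The lowest untreated and the highest manipulated value were close, and the log2 fold change was -0.97 (SE 0.32, limma adjusted p 0.310). These values are those of a row of 689 bases on chromosome 1 (77829711 to 77830399, Rnor_6.0), while RefSeq places the start of Rpl9 on chromosome 14 (GRCr8), so that they are not values at the gene's own place. Rows under 1000 bases in every library were found for 14 members, 12 of them tested. In 6 of these 12, Rpl9, Rpl35a, Rpl37, Rpl38, Rpl39 and Rps13, the row lay on another chromosome than the RefSeq start. It lay on the same chromosome in Rpl30l1 and Rpl36, and Rps10l1, Rps18l1, Rps20 and Rps29 had no RefSeq start to compare. Among the 53 tested members with longer rows no member lay wholly on another chromosome, and 4, Rpl21, Rps4x, Rps10 and Rps27a, had some of their rows elsewhere. Without the 6 genes, a choice made after the data were seen, the median log2 fold change of the other 59 members was -0.53, with 54 below 0, 6 lower and 1 higher at an unadjusted limma p under 0.05, and groups apart and lower in 7.

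Rpsa, which encodes the small-subunit protein known also as the laminin receptor, had 89.2, 102 and 117 FPKM in untreated and 62.8, 71.9 and 44.9 FPKM in manipulated rats. The gap between the groups was wider than in Rps27a, at a log2 fold change of -0.79 (SE 0.31, limma adjusted p 0.326). The small-subunit gene Rps18 had 131, 99.4 and 194 FPKM in untreated and 79.5, 96.6 and 62.5 FPKM in manipulated rats, and the groups stood apart by 1 pair of near values, from untreated replicate 2 and manipulated replicate 5. Rps3a, also of the small subunit, had 53.3, 30.7 and 68.4 FPKM in untreated and 28.4, 33.5 and 19.5 FPKM in manipulated rats, and here manipulated replicate 5 exceeded untreated replicate 2. The log2 fold changes were -0.79 (SE 0.35) for Rps18 and -0.84 (SE 0.37) for Rps3a, both with a limma adjusted p of 0.326. After median-ratio scaling Rpl21 and Rpl9, at -0.54 and -0.57, were the members still lower at an unadjusted limma p under 0.05 (3.08%, beside 4.80% of all tested genes), and the groups of 5 members stood apart with lower values (7.69%, beside 9.83%). In the other direction 1 member, Rpl37a (1.54%), had an unadjusted limma p under 0.05, beside 6.50% of all tested genes, and stood apart, beside 10.1%.

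Rpl37a, a small zinc-binding protein of the large subunit, went against the rest. It had 84.0, 82.3 and 106 FPKM in untreated and 200, 188 and 218 FPKM in manipulated rats. The groups stood far apart, at 90.9 ± 13.4 and 202 ± 15.1 FPKM (SD, n = 3). The log2 fold change was 1.15 (SE 0.28; limma p 0.00271, adjusted 0.227), and after median-ratio scaling 1.61 (limma adjusted p 0.121). Its row began at 80002045 on chromosome 9 in every library, and ended at 80005027 in the 3 untreated libraries but at other positions, 80005135 to 80005343, in the manipulated ones.

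The number of fragments behind Rpl37a did not separate the groups. The deposited interval around each FPKM value narrows as fragments increase, and taking each arm of it as 2 Poisson SDs gives an implied number of fragments. This implied number is not a read count, and it is too low where fragments are shared between transcripts. For Rpl37a it was 1661, 1649 and 1728 in untreated and 1434, 2264 and 1526 in manipulated rats. Implied fragments for 1 FPKM reflect the transcript length used for scaling, the depth of the library and any sharing of fragments between transcripts. They were 19.8, 20.04 and 16.2 in untreated and 7.17, 12.0 and 6.99 in manipulated rats. So in manipulated rats the higher FPKM of Rpl37a went with fewer implied fragments for each FPKM in every library, and in all with fewer fragments in replicates 4 and 6 and more in replicate 5.

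The same reading singles out 4 further genes, chosen after their values were seen, in which 1 or 2 libraries stood apart. Rpl14, of the large subunit, had 94.7, 73.3 and 916 FPKM in untreated and 64.0, 89.5 and 51.4 FPKM in manipulated rats. Untreated replicate 3 stood alone in FPKM, while its implied fragments, 371, were the lowest of all, the other libraries having 985 to 1293. Rpl14 had the lowest fold change of all members, -1.47 (SE 0.82, limma adjusted p 0.339), and without untreated replicate 3 it was -0.32. Without Rpl14 the group means of the summed FPKM were 7065 ± 1488 and 5294 ± 886 (SD, n = 3; untreated first), and their ratio was 0.749.

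Rpl7, of the large subunit, had 11.4, 7.06 and 20.1 FPKM in untreated and 28.0, 7.51 and 35.6 FPKM in manipulated rats. Manipulated replicates 4 and 6 were high and replicate 5 lay among the untreated values. Its implied fragments were 3621, 2238 and 1665 in untreated and 1798, 2088 and 1975 in manipulated rats, so the highest FPKM did not go with the most fragments. Rps24, of the small subunit, had 91.8, 59.8 and 105 FPKM in untreated and 51.8, 73.8 and 170 FPKM in manipulated rats. Manipulated replicate 6, lowest in most members, was highest here, with the fewest implied fragments, 668, against 956 to 1605 in the other libraries. Rps12, also of the small subunit, showed that pattern too, with 145 FPKM and 674 implied fragments in manipulated replicate 6, and at most 106 FPKM and at least 884 implied fragments elsewhere.

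**Figure D2:**
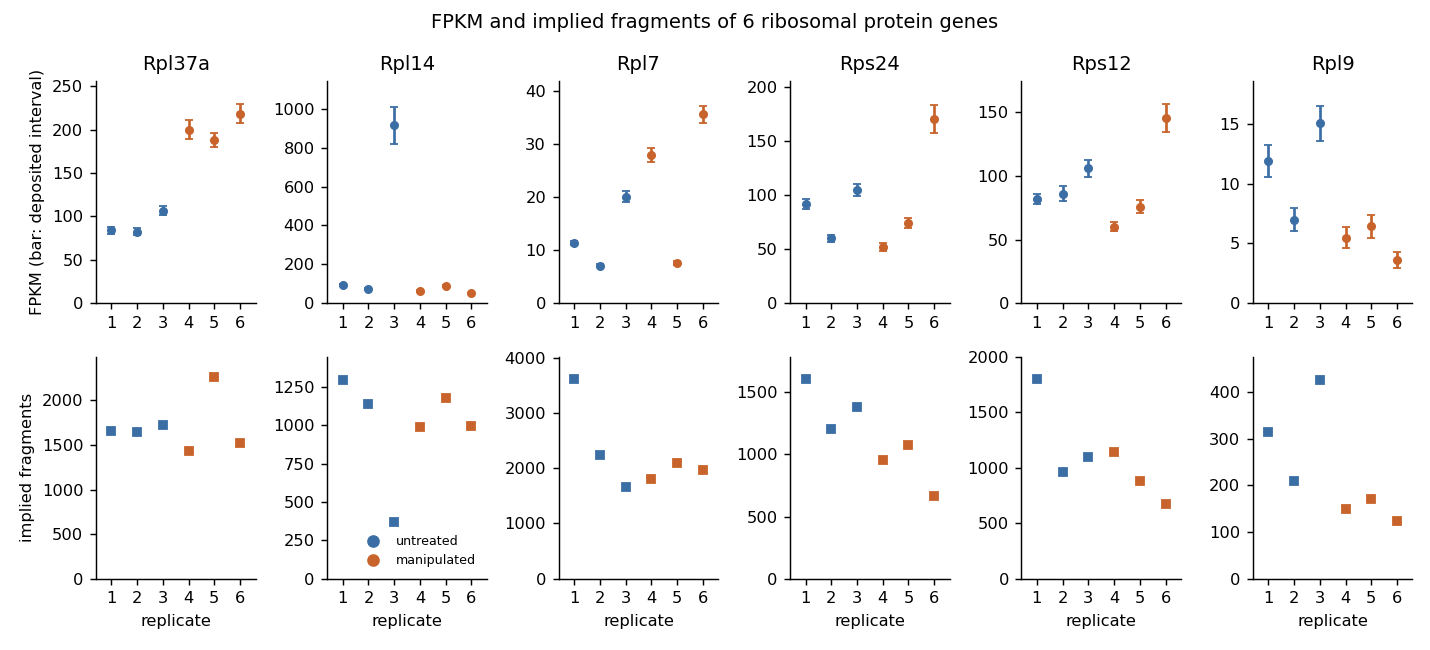
FPKM with the deposited interval (upper row) and implied fragments (lower row) of 6 ribosomal protein genes by replicate, with untreated rats in blue and manipulated rats in orange. In Rpl37a the FPKM of the groups stand apart at 82.3 to 106 and 188 to 218 while implied fragments overlap, and in Rpl14 the library with 916 FPKM has the fewest implied fragments, whereas in Rpl9 both readings have the same order.

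How far this reaches was measured over all members. Implied fragments for 1 FPKM were divided by the median of their library. They then moved by at most 1.5 times across the 6 libraries in 24 of 65 members (36.9%), beside 32.5% of all tested genes. The median move was 1.74 times in members and 2.14 times in all tested genes. In 11 members the move was more than 3 times, a count for which the share of all tested genes is not given. Among the widest moves were very low implied fragments in 1 library. Rps9 had 16.1 at 59.5 FPKM in manipulated replicate 4, and Rpl13 had 61.3 at 169 FPKM in untreated replicate 3. In the 24 steady members the median log2 fold change was -0.28, with 22 below 0 (91.7%, beside 86.9% of all tested genes), and it was -0.59 in the other 41. Steady members included rows under 1000 bases, such as those of Rpl9, Rpl37 and Rpl39. Without genes whose row lay on another chromosome 19 steady members remained, with a median of -0.28. With the test limited to genes that were steady in this sense the median of all 3487 genes was -0.37, so that the median of the members was then nearer to 0. Of the 7 members that were lower at an unadjusted limma p under 0.05, Rpl9, Rps18 and Rps10l1 belong to the steady ones. Rpsa is not one of the steady ones. Its implied fragments were 1554, 884 and 1643 in untreated and 1283, 1351 and 1225 in manipulated rats, so that they overlapped where its FPKM did not. Changed transcript models and shared fragments cannot be told apart by this measure, and their part in the differences between groups was not tested.

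**Figure D3:**
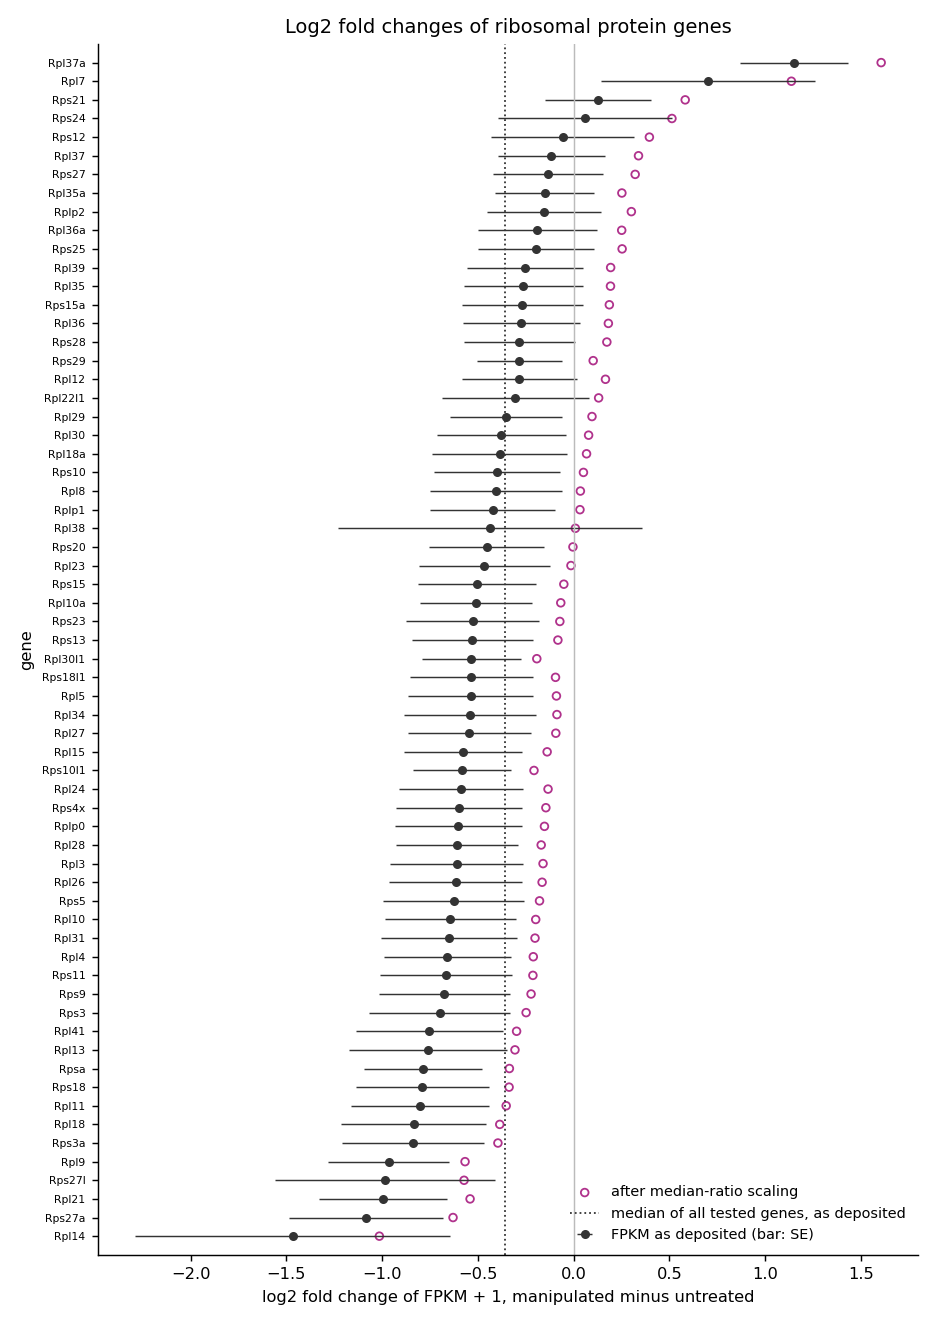
Log2 fold change of FPKM + 1, manipulated minus untreated (x axis), for 64 of the 65 tested ribosomal protein genes (y axis), as deposited with SE bars (filled) and after median-ratio scaling (open). Filled points run from -1.47 for Rpl14 to 1.15 for Rpl37a with a median of -0.53 over all 65, the dotted line marks the median of all tested genes at -0.36, and the median after scaling, over all 65, is -0.08.

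The most abundant members on the FPKM scale, which is per length, were Rps21, Rpl41, Rpl21, Rpl35 and Rps28. Rps21, a small-subunit protein, had 321, 419 and 396 FPKM in untreated and 372, 472 and 395 FPKM in manipulated rats, and the groups overlapped throughout, at a log2 fold change of 0.13 (SE 0.28). Rpl41, the shortest ribosomal protein, had 352, 220 and 558 FPKM in untreated and 194, 263 and 175 FPKM in manipulated rats. Here untreated replicate 3 was again highest and manipulated replicate 6 lowest, while manipulated replicate 5 exceeded untreated replicate 2. Rpl35 had 274, 274 and 370 FPKM in untreated and 231, 332 and 209 FPKM in manipulated rats. Rps28, tight in the untreated group at 311, 298 and 302 FPKM, had 221, 318 and 221 FPKM in manipulated rats. In both genes manipulated replicate 5 lay within or above the untreated range and replicates 4 and 6 below it, and neither passed, with limma adjusted p of 0.568 and 0.514.

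The proteins of the ribosomal stalk, which recruits translation factors to the large subunit, had log2 fold changes below 0 on the deposited scale, and of different sign after median-ratio scaling. Rplp0, the base of the stalk, had 65.8, 56.3 and 105 FPKM in untreated and 46.7, 57.2 and 40.7 FPKM in manipulated rats. Rplp1 had 194, 150 and 271 FPKM in untreated and 137, 179 and 133 FPKM in manipulated rats. Rplp2, with which Rplp1 pairs, had 114, 114 and 142 FPKM in untreated and 99.2, 138 and 97.5 FPKM in manipulated rats. The groups overlapped in each of the 3, and the log2 fold changes were -0.60 (SE 0.33), -0.42 (SE 0.33) and -0.15 (SE 0.30), in that order, or -0.15, 0.03 and 0.30 after scaling. Whether these differ from one another was not tested.

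Fold changes also went with the number in the gene symbol. The numbers were given by position on a gel, so that higher numbers mark, roughly, smaller proteins. The median log2 fold change was -0.59 in 30 tested members numbered under 20 and -0.38 in 31 numbered 20 and above, and across 61 members Spearman's rho with the number was 0.36. In the 23 numbered members with steady implied fragments for 1 FPKM rho was 0.55. Without the 6 genes whose row lay on another chromosome rho was 0.28 over 55 members and 0.50 over 18 steady ones. These are descriptions across genes that share 6 libraries. The pattern was as strong within the untreated group: in these 23 genes rho between the number and the deviation from the gene's mean was 0.71 in untreated replicate 2, -0.71 in untreated replicate 3 and -0.47 in untreated replicate 1. In manipulated replicates 4, 5 and 6 it was 0.14, 0.38 and 0.50. In untreated replicate 3, the highest library, the median deviation was 0.72 in genes numbered under 20 and 0.44 in the others.

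**Figure D4:**
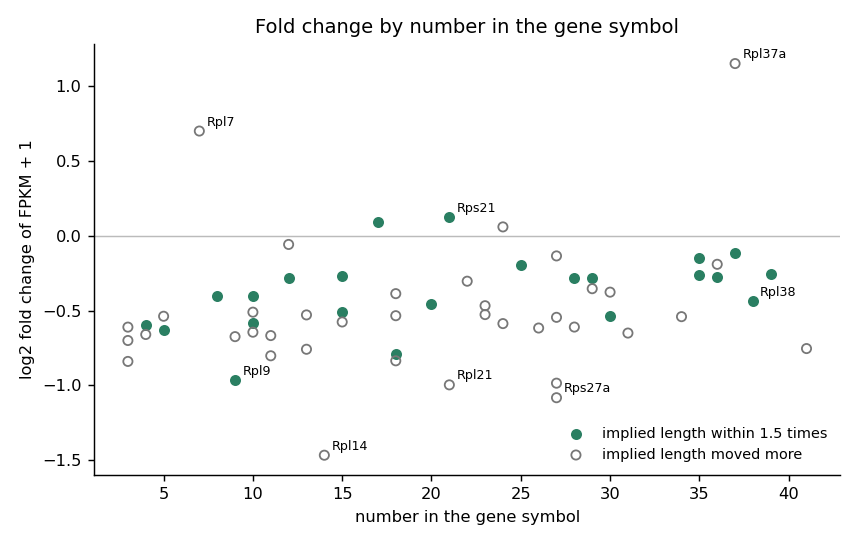
Log2 fold change of FPKM + 1, manipulated minus untreated (y axis), against the number in the gene symbol (x axis) for 61 ribosomal protein genes, with filled points where implied fragments for 1 FPKM moved by at most 1.5 times. Filled points lie lower at small numbers and nearer 0 at large ones, with a Spearman's rho of 0.55 over 23 genes.

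Paralogs are genes that encode close relatives of a ribosomal protein, and most of those found here were low beside their partners. Exceptions were Rpl7l1, described below, and a relative of Rpl36a outside the members, which stood at 68.5 to 134% of Rpl36a. Rpl3l, known from muscle, had at most 0.171 FPKM, Rpl39l and Rpl10l, known from testis, at most 0.240 and 0.583 FPKM, and Rps4y2 at most 1.61 FPKM, so that these 4 lay below the filter of a mean of 1 FPKM. Rpl30l1 stood at 1.21 to 2.54% of Rpl30 and Rps10l1 at 5.78 to 8.02% of Rps10, while Rps18l1 reached 20.8 to 27.3% of Rps18. The rows of these 3 spanned 348, 558 and 542 bases, and whether they share reads with their partners was not tested. The Rps10 values include a row of 498 bases on chromosome 6, which held 30.4 of 77.8 FPKM in untreated replicate 1. Rps10l1 had 5.80, 4.27 and 8.23 FPKM in untreated and 3.47, 4.28 and 3.15 FPKM in manipulated rats, with manipulated replicate 5 next to untreated replicate 2, and a limma adjusted p of 0.326. Rps27l, a target of p53, had 10.8, 13.8 and 16.5 FPKM in untreated and 1.49, 13.3 and 10.0 FPKM in manipulated rats. Only manipulated replicate 4 was far from the others, and in untreated replicate 1 the deposited interval of Rps27l ran from 0 to 29.0 FPKM. Rpl22l1 had 22.0, 15.9 and 34.1 FPKM in untreated and 18.9, 27.5 and 11.8 FPKM in manipulated rats, with full overlap of the groups.

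The row named Rpl38 parted from the order seen in most members, but it lay on chromosome 8 while RefSeq places the gene's start on chromosome 10. It had 131, 219 and 23.3 FPKM in untreated and 147, 48.8 and 37.5 FPKM in manipulated rats, from a row of 213 bases, and untreated replicate 3, highest in most members, was lowest. Its implied fragments went largely with its FPKM, at 265, 379 and 47.8 in untreated and 261, 98.6 and 95.3 in manipulated rats.

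Of the 15 untested members 4 were the low paralogs above. In the other 11 a row joined the gene with another in some libraries, among them Rpl6, Rpl7a, Rpl7l1, Rpl17, Rpl23a, Rpl32, Rps2 and Rps7. Counting every row that names them, 10 of the 11 were highest in untreated replicate 3 and 11 of 11 were lowest in manipulated replicate 6, and the groups stood apart in 2, Rpl17 and Rpl7a. Beside these counts stand 33.7%, 73.3% and 23.6% of all tested genes. Rpl7l1, a nucleolar relative of Rpl7 and no ribosome subunit, was the 1 that was highest in untreated replicate 1, and its own row stood at 19.1% to 166% of Rpl7 in the 5 libraries that had one. The symbols Rpl13a, Rpl19, Rps6 and Rps16, occurred in joined rows throughout and are not members. The row naming Rps6, whose product is the classic target of S6 kinase, had 108, 72.6 and 157 FPKM in untreated and 67.8, 80.4 and 47.2 FPKM in manipulated rats. Again manipulated replicate 5 exceeded untreated replicate 2.

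Genes that encode ribosomal proteins under other names had the same sign. All 4 tested ones (100%, beside 86.9% of all tested genes), Fau and Rack1 among them, lay below 0, with a median of -0.54. None passed by limma, also at an unadjusted p under 0.05. After median-ratio scaling their median was -0.10, with 1 above and 3 below 0. Fau, the source of a small-subunit protein, had 25.9, 18.9 and 98.9 FPKM in untreated and 19.6, 24.6 and 17.2 FPKM in manipulated rats, so that untreated replicate 3 stood alone as in Rpl14.

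The rest of the translation pathway had medians of the same sign, and its counts stand beside 86.9% of all tested genes below 0 and 13.5% lower at an unadjusted limma p under 0.05. Among TOP messengers outside the ribosome 14 of 14 tested genes (100%) lay below 0, with a median of -0.58, 0 passed over all genes and 3 (21.4%) had an unadjusted limma p under 0.05. Tpt1, which encodes the translationally controlled tumour protein, had 514, 189 and 283 FPKM in untreated and 124, 147 and 97.8 FPKM in manipulated rats, at a log2 fold change of -1.31 (SE 0.40, limma adjusted p 0.310). Here untreated replicate 1, not 3, was highest. Nap1l1, a histone chaperone, had 41.8, 24.7 and 44.3 FPKM in untreated and 20.1, 18.2 and 13.6 FPKM in manipulated rats, also with an adjusted p of 0.310. The elongation factors Eef1a1 and Eef2 differed in level: Eef1a1 had 274 ± 41.8 FPKM untreated and 176 ± 29.8 FPKM manipulated, and Eef2 had 114 ± 8.58 and 80.0 ± 18.4 FPKM (SD, n = 3). In both genes all manipulated values lay below all untreated ones. Naca, a chaperone at the ribosome exit, had 88.1, 63.7 and 93.7 FPKM in untreated and 51.3, 158 and 37.0 FPKM in manipulated rats, with replicate 5 alone high.

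Translation factors as a list had 37 of 37 tested genes (100%) below 0, beside 86.9% of all, and a median of -0.53, with 0 past the adjusted limma p and 6 (16.2%, beside 13.5%) lower at an unadjusted p under 0.05. Eif2s1, a subunit of the factor that brings the initiator tRNA, had 8.71, 12.1 and 9.51 FPKM in untreated and 5.47, 7.62 and 3.43 FPKM in manipulated rats, and Eif2b1, of its exchange factor, 3.98, 3.99 and 4.97 FPKM and 3.06, 2.45 and 2.55 FPKM. In both genes the groups stood apart. Ribosome biogenesis genes had a median of -0.43, with 54 of 56 (96.4%) below 0, 0 past the adjusted limma p and 8 (14.3%, beside 13.5% of all) lower at an unadjusted p under 0.05. Of these, Nob1, an endonuclease that finishes the small-subunit RNA, had 9.35 ± 2.16 and 5.14 ± 0.642 FPKM, and Nop58, a protein of box C/D nucleolar particles, 6.63 ± 1.26 and 3.81 ± 0.985 FPKM (SD, n = 3). The mTORC1 pathway, which acts on TOP messengers, had a median of -0.36, equal to that of all genes, with 30 of 32 (93.8%) below 0, 0 past the adjusted limma p and 2 (6.25%) lower at an unadjusted p under 0.05. Of these, the TOP-binding Larp1 stood at 12.5 ± 5.84 FPKM without and 6.34 ± 1.55 FPKM with manipulation (SD, n = 3). After median-ratio scaling the list medians were -0.14 for TOP messengers, -0.10 for translation factors, -0.07 for biogenesis and 0.0007 for the mTORC1 pathway, and 3 of 14, 13 of 37, 18 of 56 and 17 of 32 genes lay above 0, beside 49.3% of all tested genes.

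Some cell type markers differed between these libraries. The implied depth was 37.2 ± 2.20 M fragments in untreated and 36.9 ± 5.13 M fragments in manipulated rats (SD, n = 3), with an exact two-sided permutation p of 0.8, where 0.1 is the smallest possible. Markers of thalamic and hypothalamic neurons had a summed 177 to 258 FPKM in untreated and 29.0 to 91.5 FPKM in manipulated rats. All 15 of 15 tested were lower (100%, beside 86.9% of all tested genes). Of them 8 passed the adjusted limma p, beside 0.270% of all tested genes as lower, and Pmch was at 0 in 1 manipulated library. Markers of striatal neurons summed to 100 to 151 and 136 to 326 FPKM, overlapping through manipulated replicate 6. Here 16 of 17 were higher, beside 13.1% of all tested genes. Choroid plexus markers summed to 493 to 530 and 274 to 1326 FPKM, with manipulated replicate 4 below the untreated range. For these 10 of 11 were higher, beside the same 13.1%, and Kcnj13 was at 0 in the 3 untreated libraries and 1 manipulated one. Cortical glutamatergic markers, which define the labelled tissue, summed to 288 to 368 and 249 to 434 FPKM, with Slc17a7 at 50.8 to 110 FPKM. Of these markers 8 of 14 tested were lower (57.1%, beside 86.9% of all tested genes) and 6 higher, and 1 was at 0 in 1 untreated library. Lower values were also found in 7 of 9 astrocyte, 12 of 13 oligodendrocyte and 10 of 11 microglia markers tested. They were found in 4 of 7 markers of endothelial and mural cells and in 2 of 2 of blood cells, beside the same 86.9%. No marker in the lists of this and the sentence before passed the adjusted limma p. The part of tissue makeup in the ribosomal protein values was not tested, and in bulk tissue fewer cells of a type and less RNA per cell cannot be told apart.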

How the data were processed

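The authors deposited FPKM values with their interval bounds, 1 table per library, made with STAR 2.7.3a and Cufflinks on Rnor_6.0, per the submitters' processing notes and the file headers. The sources used here give no annotation release, strandedness or read totals. Because FPKM divides by the length of the transcripts assembled in each library, another transcript model moves a value. Rows were matched by symbol and summed per library. Of 30076 symbols, 3254 that shared a row with another gene in any library, 32 missing from a library and 7 with a failed estimate were left out, which kept 26785. Those with means of 1 FPKM or more, 10731, entered limma 3.58.1 (R 4.3.3) as log2(FPKM + 1), with a mean-variance trend, no covariate, two-sided, Benjamini-Hochberg adjusted, threshold 0.05. Fold changes on that scale understate those of low genes. Implied depth is the median over unnamed loci of 400 to 800 bases. In 5 simulations with 10731 genes the test recovered 0% of 200 genes with a log2 change of 1 and 78.8% with a log2 change of 2. The members and lists were chosen with earlier results of these data known. Named genes were any that passed, the 6 highest and 6 lowest fold changes, the smallest p, the 5 most abundant members, paralogs, stalk genes, Rpsa and, from each list, those that passed or the 2 with the smallest p, with the 4 most abundant TOP messengers. Others were chosen after their values were seen, and single values of a few genes are not reported here. Promoters came from RefSeq (GRCr8). Tables and figures were made in Python 3.11.15 (numpy 2.4.6, matplotlib 3.10.9, pandas 2.3.3).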

Additional observations from a re-analysis of the deposited data

How the results depend on the processing

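No paired analysis was possible because the groups share no replicate number. With every setting but weights per library, 0 ribosomal protein genes passed. With weights per library 7 were lower and 1 was higher (Rpl37a), while 823 (7.67%) and 141 (1.31%) of all tested genes were called; the cause was not tested. Counts over all tested genes, 10 higher and 29 lower as reported, were 18 and 64 with a robust variance prior, 6 and 19 with joined rows counted to each symbol, and 7 lower with steady implied length, where fewer genes were tested; both of the last were added after the data were seen. Leaving out each library gave 11 to 20 higher and 17 to 38 lower genes, 0 ribosomal protein genes in either direction, a member median of -0.69 to -0.34 and a ratio of summed FPKM of 0.652 to 0.846. That median was -0.34 without untreated replicate 3. Of all genes 17, 19 and 20 were higher without manipulated replicate 4, manipulated replicate 6 and untreated replicate 2, and 17 lower without manipulated replicate 5. The 8 members with an unadjusted limma p under 0.05 were 32 with equal summed FPKM, 46 with weights per library and 3 with median-ratio scaling. They were 2 without manipulated replicate 4 or untreated replicate 1, 3 without manipulated replicate 6, 15 without manipulated replicate 5, 25 without untreated replicate 2 and 1 without untreated replicate 3. Apart from median-ratio scaling, treated above, the shares of all tested genes at an unadjusted p are not given for these settings. These counts are therefore not shown to be particular to the members. With median-ratio scaling the member median was -0.0821 and the ratio of summed FPKM 0.999, and the sign turned for Naca (0.19), Rpl22l1 (0.13), Rpl30 (0.0782), Rpl35 (0.19), Rpl36a (0.25), Rpl39 (0.19), Rplp1 (0.0331), Rplp2 (0.30), Rps10 (0.0513), Rps12 (0.40), Rps27 (0.32) and Rps28 (0.17). Rps12, near 0 as reported, was also above 0 with equal summed FPKM (0.0040) and without manipulated replicate 4 (0.21), manipulated replicate 5 (0.04) or untreated replicate 3 (0.05). Rps24 was below 0 with weights per library (-0.71) and without manipulated replicate 6 (-0.42) or untreated replicate 2 (-0.18). Naca was above 0 without manipulated replicate 6 (0.16). Over single left-out libraries Naca ran from -0.87 to 0.16, Rps12 from -0.42 to 0.21 and Rps24 from -0.42 to 0.43. In none of these did the gene pass. The log2 fold change of Rpl37a stayed between 1.04 and 1.61 over 18 settings. With 3 rats in a group a change of 1 on the log2 scale was not recovered in simulations, so that values of this size are not shown to be absent or present. The simulations used the spread on the deposited scale, drawn for each gene on its own. They did not cover the fit after median-ratio scaling.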
